A study of Mus musculus with 3 samples.

Results

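The genes described here are 38 immediate early genes, measured by single-cell RNA sequencing in flexor digitorum longus (FDL) tendons of mice. They were the rows of the deposited count matrices whose gene symbol was on a list of 38 names, and all 38 were found among the 32285 genes of the matrices. The list was drawn up with earlier results of these data in view, so the members are described rather than tested. The study examined the loss of Scleraxis-lineage cells, the cells that make and keep tendon, next to natural ageing.

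There were 3 libraries, 1 per group, each from 16 pooled FDL tendons, and the study used mice of both sexes. WT were Scx-Cre-; DTR F/+ mice, which carry a diphtheria toxin receptor that stays silent without Cre, and they received 5 daily injections of diphtheria toxin (DT) into the hind paws. DTR were Scx-Cre+; DTR F/+ mice given the same 5 injections. Their Cre, driven by the Scx promoter, turned the receptor on in Scleraxis-lineage cells, and WT were littermates that carried the silent receptor and had the toxin as well. B6 were C57BL/6J mice, the strain the labels give for all 3 groups, aged 21 months and given no DT. The labels give 3 months for WT and DTR, which by the study's methods was the age at injection. The study states that the sequenced tendons were taken 3 months after the injections. Digestion with collagenase lasted 120 min for WT and 90 min for DTR and B6. Digestion time therefore cannot be told apart from genotype in DTR against WT, nor from age, strain history and DT in B6 against WT. DTR and B6 shared the 90 min, but they differed in genotype, age, strain history and DT, which cannot be told apart there.

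Immediate early genes are genes whose promoters are poised, so that a growth factor, a mechanical load or a stress can switch them on without new protein synthesis. Signals through MAP kinases, SRF and CREB reach them within minutes, their mRNAs decay fast, and many encode transcription factors (the AP-1, EGR, NR4A and KLF families) that pass the signal on, while others encode brakes such as DUSP phosphatases and the mRNA decay factors of the ZFP36 family. In tendon, FOS and EGR1 are known as load-responsive, and enzymatic dissociation of solid tissue is itself known to induce this gene set.

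With 1 library per group there was no replicate check, and the differences below are descriptions without a test. A level is the sum of unique molecular identifier (UMI) counts of a gene over all cells of 1 class and library, divided by their total and given as CPM, the usual scale for such sums, with exact Poisson 95% intervals. Ratios have exact intervals from both counts and shares of cells exact binomial (Clopper-Pearson) ones, all at 95% and for counting error only. A UMI marks the end of 1 captured mRNA, so levels were not divided by gene length. The filter kept 8357 cells of WT, 6554 of DTR and 4798 of B6, with medians of 13008, 12328 and 12914 UMIs. Median mitochondrial UMIs were 2.83%, 3.00% and 5.09%, so B6 stood apart in this sign of RNA quality. Of each pair of libraries, between 61 and 76 cell barcodes were shared, 13 to 15 of them by kept cells. Cells were put into 8 classes by markers, none of them a member, and every marker was detected in its class in each library. Cells without a class made up 10.5% to 12.7% of each library. The tenocyte class held 5266 cells of WT, 2755 of DTR and 862 of B6, the epitenon class 1119, 1130 and 2449, and the macrophage class 548, 1091 and 490. The T cell, endothelial, mural, Schwann and satellite classes held 41 to 303 cells per library, and mural cells of B6 carried endothelial markers at 7987 CPM against 1779 in WT and 788 in DTR. Values of B6 mural and endothelial cells are therefore those of gates that shared markers. Fewer cells of a state and less RNA per cell cannot be told apart in a summed level.

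Promoter sequences are shown for 4 members on which the results below turn: Fos, the leading member in tenocytes, Zfp36, which differed widely between libraries in tenocytes and epitenon cells, Egr2, which did so in macrophages, and Dusp1, a brake on the response. RefSeq promoter tables (GRCm38.p6) held 39 windows for 30 of the 38 members. Each sequence is the 250 bases before a start site, 5′ to 3′ on the gene's strand, with the motif in capitals. The windows are chr12:85473640-85473889 (+) for Fos with a TATA box, chr7:28379229-28379478 (-) for Zfp36 with a CArG box, the site of SRF, chr10:67537316-67537565 (+) for Egr2 with a CArG box (the first of its windows), and chr17:26508473-26508722 (-) for Dusp1 with a CRE, the site of CREB.
Fos: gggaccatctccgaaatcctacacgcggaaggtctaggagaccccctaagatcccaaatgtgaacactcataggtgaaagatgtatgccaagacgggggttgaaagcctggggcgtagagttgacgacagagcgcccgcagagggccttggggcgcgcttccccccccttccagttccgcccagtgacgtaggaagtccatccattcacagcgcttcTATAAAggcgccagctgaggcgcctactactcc
Zfp36: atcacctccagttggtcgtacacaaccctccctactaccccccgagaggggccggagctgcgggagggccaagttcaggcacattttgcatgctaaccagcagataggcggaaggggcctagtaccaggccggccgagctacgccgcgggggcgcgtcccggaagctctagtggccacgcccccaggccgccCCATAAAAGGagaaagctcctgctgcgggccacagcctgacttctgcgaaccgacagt
Egr2: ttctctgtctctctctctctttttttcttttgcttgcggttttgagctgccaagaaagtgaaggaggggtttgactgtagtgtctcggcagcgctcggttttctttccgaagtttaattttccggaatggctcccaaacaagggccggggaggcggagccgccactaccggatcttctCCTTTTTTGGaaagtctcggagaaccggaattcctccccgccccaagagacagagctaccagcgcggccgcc
Dusp1: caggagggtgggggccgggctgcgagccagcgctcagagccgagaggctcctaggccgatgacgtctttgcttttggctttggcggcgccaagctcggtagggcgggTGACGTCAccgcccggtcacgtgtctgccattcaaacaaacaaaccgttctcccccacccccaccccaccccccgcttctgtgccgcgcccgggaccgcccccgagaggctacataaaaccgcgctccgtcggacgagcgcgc
Searched on both strands, the CArG box stood in windows of 3 members, Dusp5, Egr2 and Zfp36, and in 1.47% of all 32851 windows. The CRE (TGACGTCA) stood in those of Btg2, Dusp1 and Maff and in 1.55% of all windows, and the TATA box (TATAAA) in those of Btg1, Fos, Gadd45b, Gadd45g, Nr4a2 and Zfp36l1 and in 12.4% of all. The AP-1 site (TGANTCA) stood in those of Csrnp1 and Zfp36l1 (6.75% of all), and the EGR site (GCGTGGGCG) in that of Maff (0.536% of all). No match overlapped one of another motif. Members were counted by gene and the background by window, so these counts and percentages are not on the same scale. A site further than 250 bases before the start, or in a member without a window, would not have been found. A match describes the letters and does not show that a factor binds there.

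The leading members differed between several classes, while tenocytes and epitenon cells of WT shared Fos, Klf4, Jund and Junb among their 5 most abundant. Of the 38, 17 were highest in the same class in all 3 libraries, and 9 of those were highest in mural cells, the contractile cells around vessels. These were Junb, Nr4a1, Nr4a2, Nr4a3, Maff, Mafk, Gadd45b, Gadd45g and Sik1. Klf4 was highest in epitenon cells, Klf6 and Csrnp1 in macrophages, Zfp36l2 and Dusp5 in T cells, Dusp2 and Rhob in endothelial cells, and Jun in Schwann cells. The T cell class was lowest for 16 members in all 3 libraries, among them Fos, Jun and Egr1. The same counts over all genes are not set beside these, so they do not show a trait particular to the members. The highest level of any member in any class was Junb in mural cells of B6, at 3839 CPM (3701 to 3981).

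**Figure D1:**
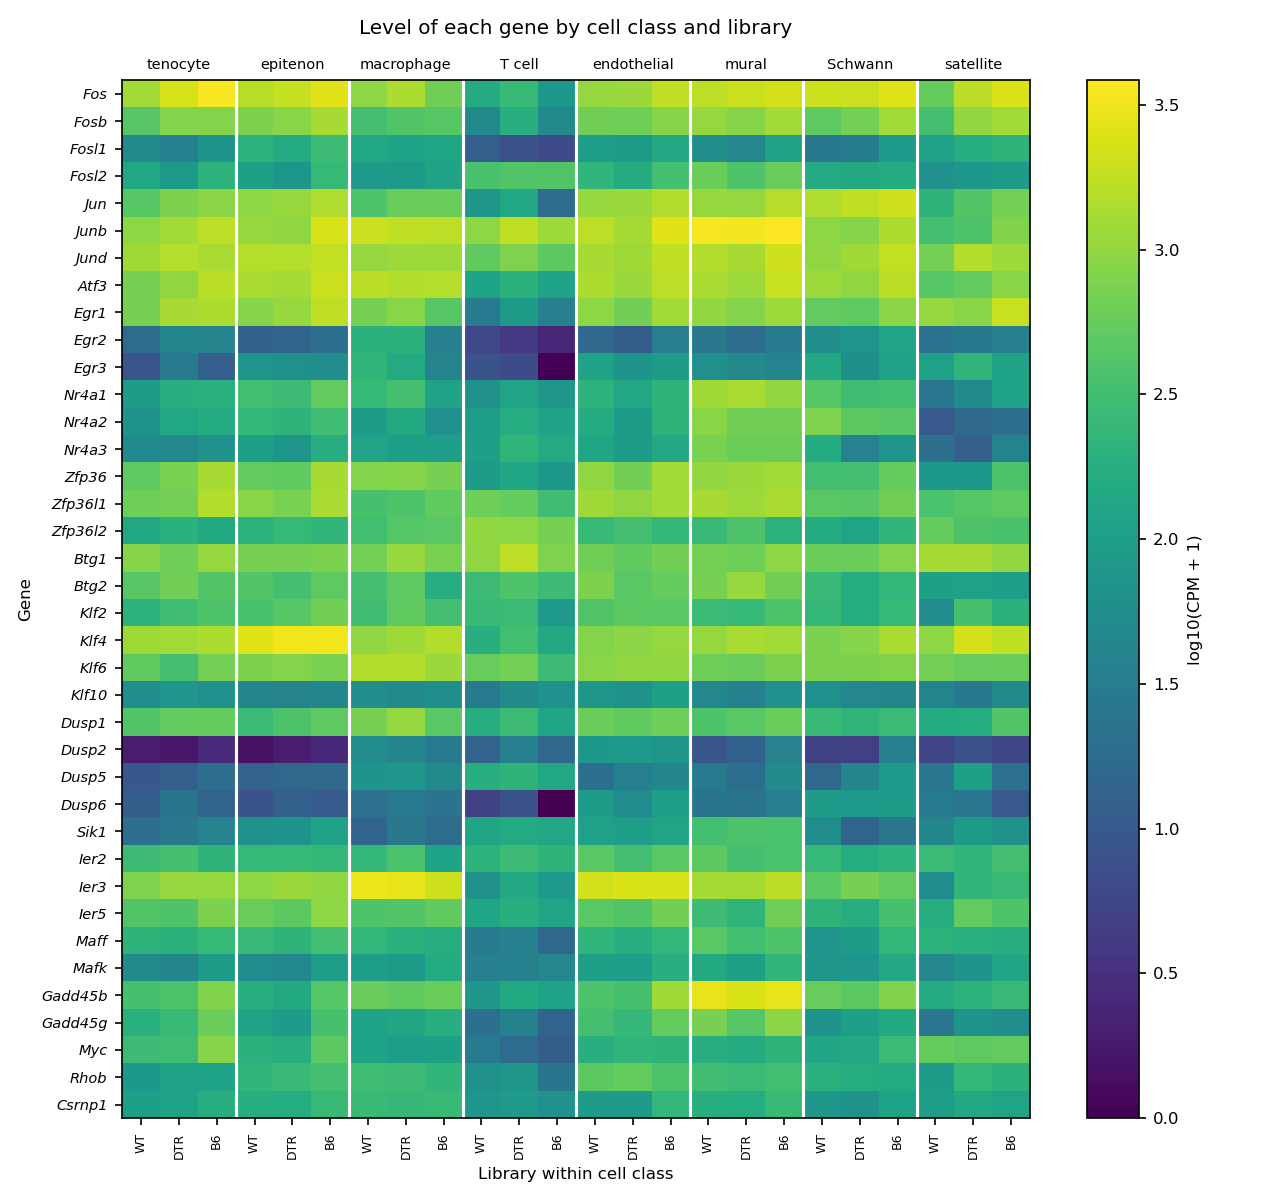
Level of each of the 38 genes (rows) in each library within each cell class (columns), as log10(CPM + 1) on a colour scale. Klf4 is brightest in the epitenon columns, Ier3 in the macrophage and endothelial columns, and Gadd45b and Junb in the mural columns, while the T cell columns are darkest for Fos and Egr1.

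Some of these class patterns were steep. Gadd45b, which binds a MAP kinase kinase kinase in the stress response, stood in mural cells at 2883 CPM in WT, 2374 in DTR and 2947 in B6, and in tenocytes at 347, 386 and 816. Nr4a1, an orphan nuclear receptor, stood at 1184, 1360 and 999 CPM in mural cells against 90.9, 176 and 190 in tenocytes. In both genes the lowest mural value lay above the highest tenocyte value. Klf4, a zinc finger factor that holds cells out of division, stood in epitenon cells at 2672, 3197 and 3174 CPM and in tenocytes at 1183, 1241 and 1404. Ier3, a stress-induced regulator of survival, stood in macrophages at 3100, 2962 and 2039 CPM and in tenocytes at 785, 1073 and 1046. Dusp2, a nuclear MAP kinase phosphatase of immune cells, was near absent from tenocytes, at 0.858, 0.715 and 1.75 CPM, and reached 81.4, 85.4 and 78.1 CPM in endothelial cells. Dusp5, which acts on ERK, stood at 182, 212 and 142 CPM in T cells and at 8.41, 11.2 and 18.1 in tenocytes.

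In tenocytes the 5 most abundant members gave 39.0% of the members' UMIs in WT, 42.0% in DTR and 39.7% in B6. Fos was the most abundant in each library, with 8.98%, 12.7% and 14.3% of them. At 20 CPM or more, 32 members were measured in tenocytes of WT, 36 of DTR and 34 of B6, and at 1000 CPM or more 3, 6 and 10. No counts of all genes at these levels in each library are set beside them here.

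The summed share of the 38 genes in a cell's UMIs set the libraries apart in tenocytes and epitenon cells. The median tenocyte spent 1.17% of its UMIs on them in WT (quartiles 0.775% and 1.78%), 1.66% in DTR (1.10% and 2.41%) and 2.11% in B6 (1.28% and 3.35%). In epitenon cells WT and DTR lay close, at 1.72% and 1.78%, and B6 was higher at 2.66%. In macrophages the order differed, with 1.87% in WT, 2.02% in DTR and 1.65% in B6. Cells within a library overlapped widely in each of these classes, and the lower quartile of B6 tenocytes lay above the WT median. Mural cells had the largest median shares in each library, 2.79%, 2.61% and 3.45%, and T cells the smallest, 0.712%, 0.978% and 0.588%.

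**Figure D2:**
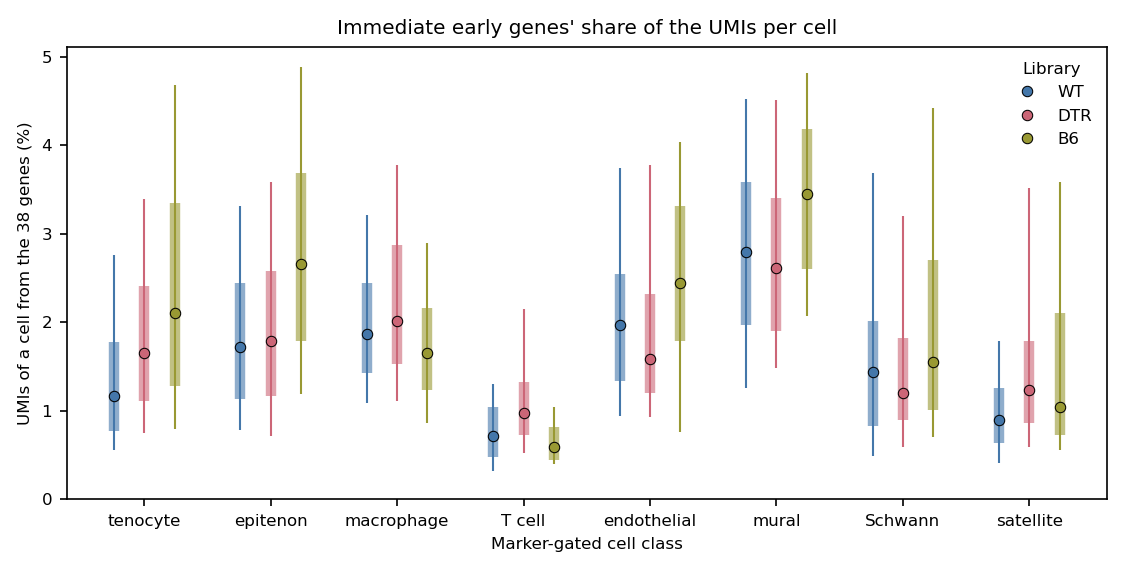
Percent of a cell's UMIs that came from the 38 genes, by cell class and library, with the median over cells as a point, quartiles as a thick bar and the 10th and 90th percentiles as a thin line. Medians step up from WT (1.17%) over DTR (1.66%) to B6 (2.11%) in tenocytes, while in macrophages B6 (1.65%) is lowest.

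Mitochondrial UMIs were higher in B6, with medians of 5.63% in its tenocytes against 2.78% in WT and 2.85% in DTR, and of 4.45% against 2.55% and 2.51% in epitenon cells. Among tenocytes with 2% to 4% mitochondrial UMIs, the median member share was 1.13% in WT (3731 cells), 1.68% in DTR (1745 cells) and 1.98% in B6 (109 cells). Among those with 4% to 6% it was 1.36%, 1.68% and 2.06%. From 6% up the order of DTR and WT turned, with WT at 1.68% (145 cells) and DTR at 1.52% (108 cells) from 6% to 8%, and at 1.70% and 1.59% from 8% to 10%. B6 was above both in each bin from 2% up. Epitenon cells of B6 were likewise at 2.72% against 1.72% in WT and 1.79% in DTR among those with 2% to 4%. Within bands of depth the order in tenocytes was also WT, DTR, B6, with medians of 1.12%, 1.63% and 1.98% among those with 10000 to 20000 UMIs. Which part mitochondrial content or depth had in the gaps was not tested.

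**Figure D3:**
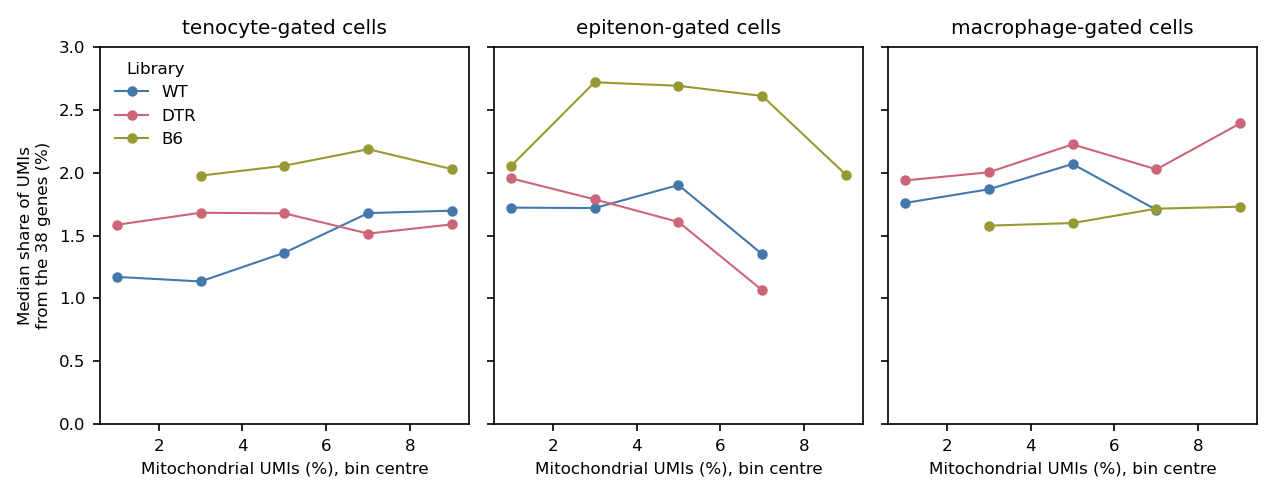
Median percent of a cell's UMIs from the 38 genes against the percent of mitochondrial UMIs, in bins of 2 percentage points with at least 20 cells, by library in 3 cell classes. B6 lies above WT and DTR in tenocytes and epitenon cells in each bin shown for all 3 libraries, and DTR lies below WT above 6% in tenocytes.

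The tenocytes were not the same mixture in each library. Of the clusters made without the members, 1 tenocyte cluster held 1366 cells of DTR against 135 of WT and 59 of B6. In the largest tenocyte cluster, with 3210 cells of WT, 911 of DTR and 682 of B6, the median share was 1.17%, 1.71% and 2.16%. In a further one, with 2087, 676 and 177 cells, it was 1.13%, 1.37% and 1.60%. In the cluster mainly of DTR it was 1.61%, 1.77% and 2.32%. The order of the libraries was the same within these 3 clusters and in the class as a whole. The smallest tenocyte cluster held 18, 44 and 18 cells and was given no median in WT and B6. Epitenon cells were also mixed unevenly. Their largest cluster held 851, 589 and 1895 cells, with median shares of 1.85%, 2.06% and 2.89%. The next held 436, 662 and 522 cells, with 1.44%, 1.49% and 1.99%. DTR was above WT in a further one and below WT in the smallest, and B6 was highest in each. The part of these mixtures in the tenocyte and epitenon medians was not tested.

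The comparison of DTR with WT addressed what the loss of Scleraxis-lineage cells left in the remaining tenocytes. In them the members leaned upward: 28 of the 36 with at least 20 CPM in either library were higher in DTR, beside 52.0% of all genes. Their median log2 ratio was 0.43 against 0.01 over all 5490 genes at that level. The clearest were Fos, Fosb, Egr1 to Egr3, Nr4a1 and Nr4a2 and Dusp6, at 1.83-fold to 3.94-fold. By the rule of 2-fold or more, Egr2, Egr3 and Dusp6 were higher, beside 2.06% of all genes, and no member was lower, beside 1.55% of all genes. Those 3 had at most 39.9 CPM in either library. In WT they stood at 17.3, 7.68 and 10.4 CPM, so they reached the minimum only through DTR. Sik1 did so too, since 32 members reached 20 CPM in WT and 36 in DTR. For these members the minimum itself fixed the direction. Dusp2 and Dusp5 lay under 20 CPM in both libraries. With no such minimum all 38 had a median of 0.41, beside 0.10 over all genes.

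**Figure D4:**
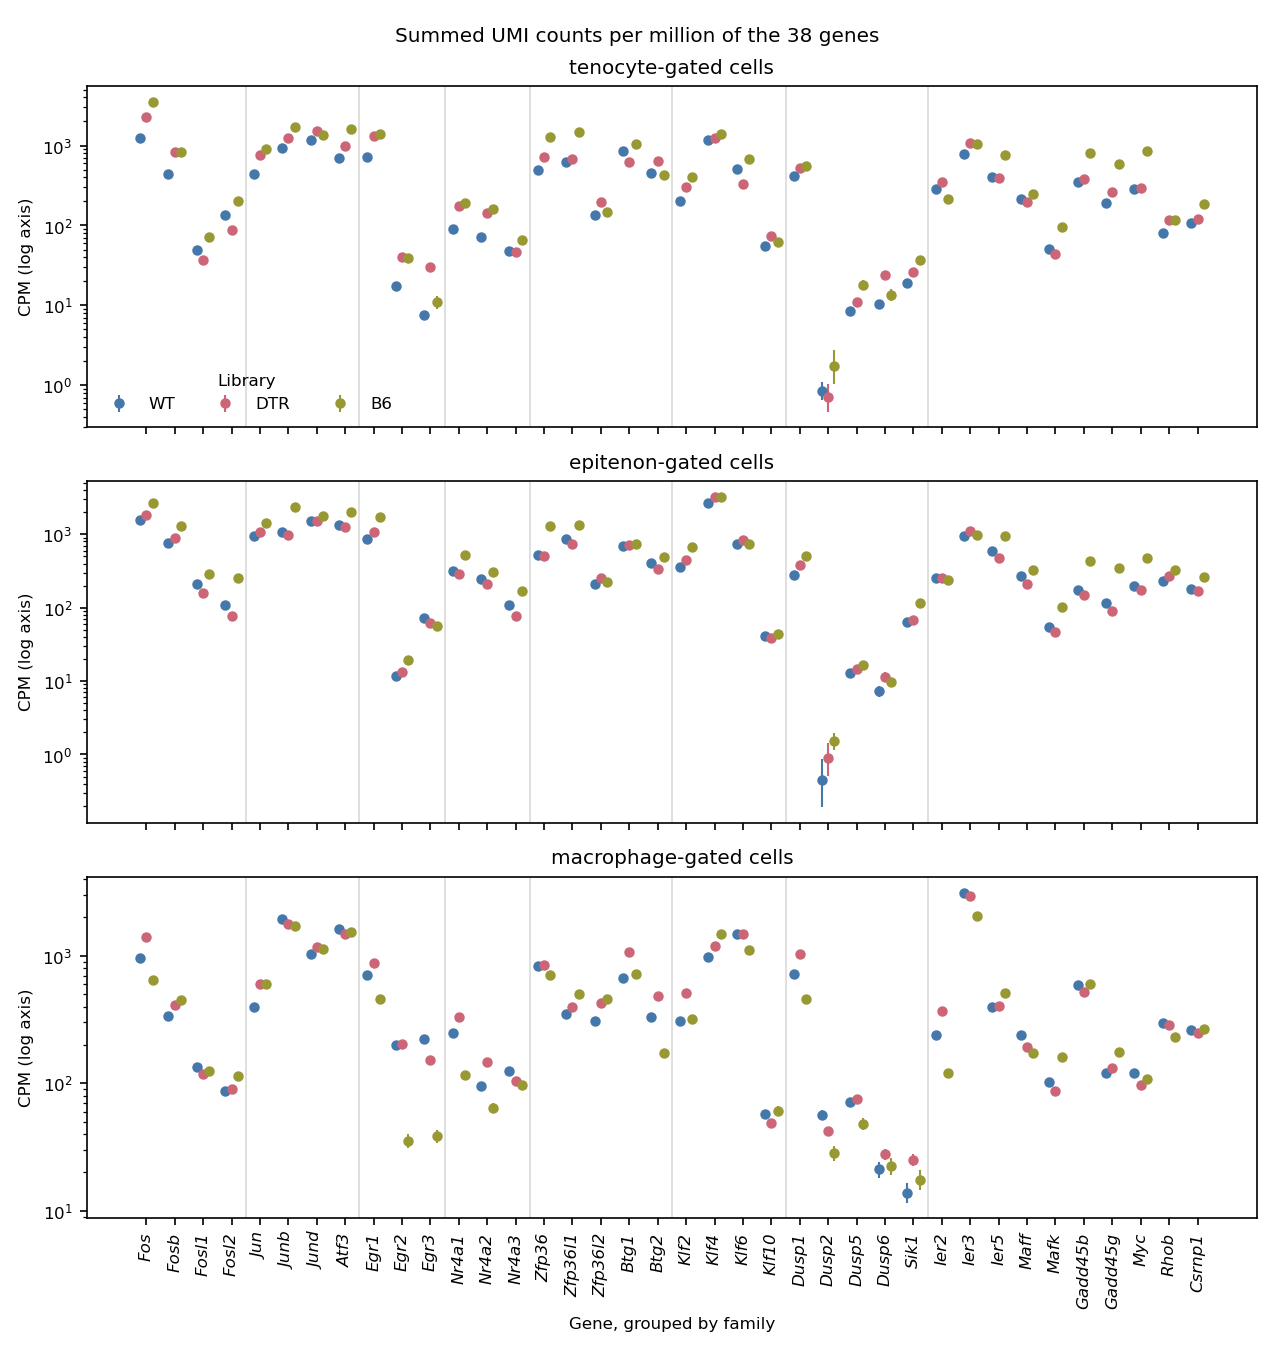
CPM (log axis) of each of the 38 genes by library in tenocyte-, epitenon- and macrophage-gated cells, with exact Poisson 95% intervals for counting error only. Fos climbs from 1239 over 2300 to 3520 CPM in tenocytes, and Egr2 and Egr3 of B6 lie far under the other libraries in macrophages.

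Among the Fos genes, whose proteins pair with Jun to form AP-1, Fos (ENSMUSG00000021250) stood in tenocytes at 1239 CPM (1231 to 1247) in WT, 2300 (2284 to 2316) in DTR and 3520 (3484 to 3557) in B6. Its DTR to WT ratio was 1.86 (1.84 to 1.87), and its B6 to WT ratio 2.84 (2.81 to 2.88), rank 81 of 5298 genes. Fosb was at 446, 841 and 821 CPM, so DTR and B6 lay together above WT. Fosl1 and Fosl2, the Fos-related antigens, took another order, lowest in DTR: Fosl1 at 49.1, 37.0 and 71.7 CPM and Fosl2 at 133, 88.5 and 204. After thinning each cell to 2000 UMIs, 51.0% of tenocytes held a Fos UMI in WT (95% interval 49.6% to 52.3%), 75.5% in DTR (73.8% to 77.1%) and 72.3% in B6 (69.2% to 75.2%). Without thinning these shares were 76.2%, 92.6% and 89.3%. T cells, the class lowest in Fos, gave 28.6%, 25.7% and 14.3% after thinning, with median depths of 10052, 7921 and 9838 UMIs against 12935, 12402 and 11075 in tenocytes. The shares of DTR and B6 overlapped in their intervals although the Fos level was higher in B6. The 10% of tenocytes with the most Fos held 53.1% of its UMIs in WT, 37.3% in DTR and 43.4% in B6.

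Jun, the partner of Fos, was at 445 CPM in WT, 754 in DTR and 910 in B6. Junb, an AP-1 member that can restrain Jun, was at 931, 1225 and 1702, and Jund, the least inducible of the Jun genes and their most abundant in WT, at 1183 (1175 to 1191), 1531 (1518 to 1544) and 1366 (1344 to 1389). Atf3, a stress-induced repressor of the same protein class, was at 699, 979 and 1630.5 CPM. All 4 were lowest in WT, and Jund alone was not highest in B6.

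Egr1, the zinc finger factor tied to collagen genes in tendon, stood at 714 CPM (708 to 720) in WT, 1306 (1294 to 1318) in DTR and 1397 (1374 to 1420) in B6. Egr2 was at 17.3, 39.9 and 39.3 CPM, and Egr3 at 7.68, 30.3 and 11.0. Egr3 was thus high in DTR alone, at 3.94-fold (3.56 to 4.38) over WT, and it was the only member at least 2-fold lower in B6 than in DTR (ratio 0.363, 0.296 to 0.441). Of the nuclear receptor genes, Nr4a1 was at 90.9 CPM (88.7 to 93.1) in WT, 176 (171 to 180) in DTR and 190 (182 to 199) in B6, and Nr4a2 at 70.9, 141 and 160, so both were lowest in WT, whereas Nr4a3 was at 48.6, 46.7 and 65.0.

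Genes that end the response showed several patterns in tenocytes. Zfp36, which binds AU-rich mRNAs and speeds their decay, stood at 497 CPM in WT, 718 in DTR and 1290.5 in B6, and Zfp36l1 at 619, 673 and 1483. Zfp36l2 was at 136, 196 and 148 CPM, highest in DTR. Btg1 and Btg2, growth-restraining cofactors of mRNA deadenylation, went in opposite directions: Btg1 was at 850 (843 to 856), 628 (620 to 636) and 1050 (1030 to 1070) CPM, Btg2 at 455, 638 and 422. Dusp1, the phosphatase that switches off p38 and JNK, was at 412 (407 to 417), 523 (516 to 530) and 548 (533 to 562) CPM. Dusp6, the cytosolic phosphatase of ERK, was at 10.4, 23.8 and 13.4. Sik1, a kinase that restrains CREB coactivators, was at 19.1, 26.4 and 37.5.

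Among the Klf genes, Klf2 was at 204 CPM in WT, 302 in DTR and 401 in B6 tenocytes, Klf4 at 1183 (1175 to 1191), 1241 (1230 to 1253) and 1404 (1381 to 1427), and Klf10, which TGF-beta induces, at 55.6, 73.9 and 62.9. Klf6, a factor of the wound response, was the member furthest down in DTR, at 512, 329 and 676 CPM, a DTR to WT ratio of 0.642 (0.629 to 0.656). The remaining members fell into those that separated B6 from both others and those that did not. Myc, the growth factor-induced proto-oncogene, was at 287 CPM (283 to 291) in WT, 296 (291 to 302) in DTR and 850 (832 to 868) in B6. Gadd45b was at 347, 386 and 816, its relative Gadd45g at 188, 265 and 586, and Ier5, which feeds heat shock factor signalling, at 410, 394 and 760. Mafk, a small Maf protein, was at 50.2, 43.4 and 94.3 CPM, its relative Maff at 214, 198 and 251, and the nuclear protein gene Csrnp1 at 109, 121 and 184. Ier2 was at 287, 348 and 214 CPM, Ier3 at 785 (779 to 792), 1073 (1063 to 1084) and 1046 (1026 to 1066), and the small GTPase gene Rhob at 81.0, 117 and 119.

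The comparison of B6 with WT addressed natural ageing, and in tenocytes most members were higher in B6. Of 34 members with at least 20 CPM in either library, 32 were higher in B6, beside 24.2% of all genes. Their median log2 ratio was 0.875 while that of all 5298 genes was -0.27, a difference of 1.14. At least 2-fold higher were 11 members, Fos, Jun, Egr2, Atf3, Nr4a1, Nr4a2, Zfp36, Zfp36l1, Myc, Gadd45b and Gadd45g, beside 3.57% of all genes. No member was at least 2-fold lower, beside 2.10% of all genes. Of the 34, Egr2 and Sik1 reached 20 CPM in B6 and not in WT, so the minimum fixed their direction. Gadd45g led at 3.11-fold (3.01 to 3.20), followed by Myc at 2.96-fold (2.88 to 3.03). Btg2 and Ier2 were the 2 members lower in B6, and on the TMM scale described below 33 of the 34 were higher. Dusp2, Dusp5, Dusp6 and Egr3 lay under the minimum, and without it 36 of 38 members were higher.

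B6 against DTR set natural ageing beside depletion, at the same digestion time but with age, genotype, strain history and DT differing together. The gap was smaller than against WT: 26 of 36 tenocyte members were higher in B6, beside 29.3% of all genes. The members' median log2 ratio was 0.37, and 0.66 above that of all genes. At least 2-fold higher were Fosl2, Zfp36l1, Klf6, Myc, Mafk, Gadd45b and Gadd45g, 7 members beside 4.12% of all genes, and Egr3 was at least 2-fold lower, beside 5.33%. Egr3 reached 20 CPM in DTR alone, so the minimum fixed its direction. Fosb, Egr1, Egr2 and Nr4a1, which differed between WT and both others, had ratios of B6 to DTR between 0.977 and 1.08. Members lowest in WT did not all do so. Fos, Jun, Atf3 and Zfp36 rose further in B6, with Fos at a log2 ratio of 0.61 to DTR. Each library enters 2 of the 3 ratios, so the ratios are not independent of one another.

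The scaling touched these counts. All genes in tenocytes had a median log2 ratio of -0.27 for B6 against WT and -0.29 against DTR. With trimmed mean of M-values (TMM) factors, those medians were -0.04 and 0.05, and all genes past 2-fold then split into 256 higher and 65 lower instead of 189 and 111 for B6 against WT. For B6 against DTR the split was 430 and 113 instead of 225 and 291. For DTR against WT it was 98 and 119 instead of 113 and 85. Of the members, 18 were then at least 2-fold higher in B6 tenocytes than in WT and 12 than in DTR, and 26 of 36 were higher in DTR than in WT, while the members' distance from the median of all genes does not depend on it.

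**Figure D5:**
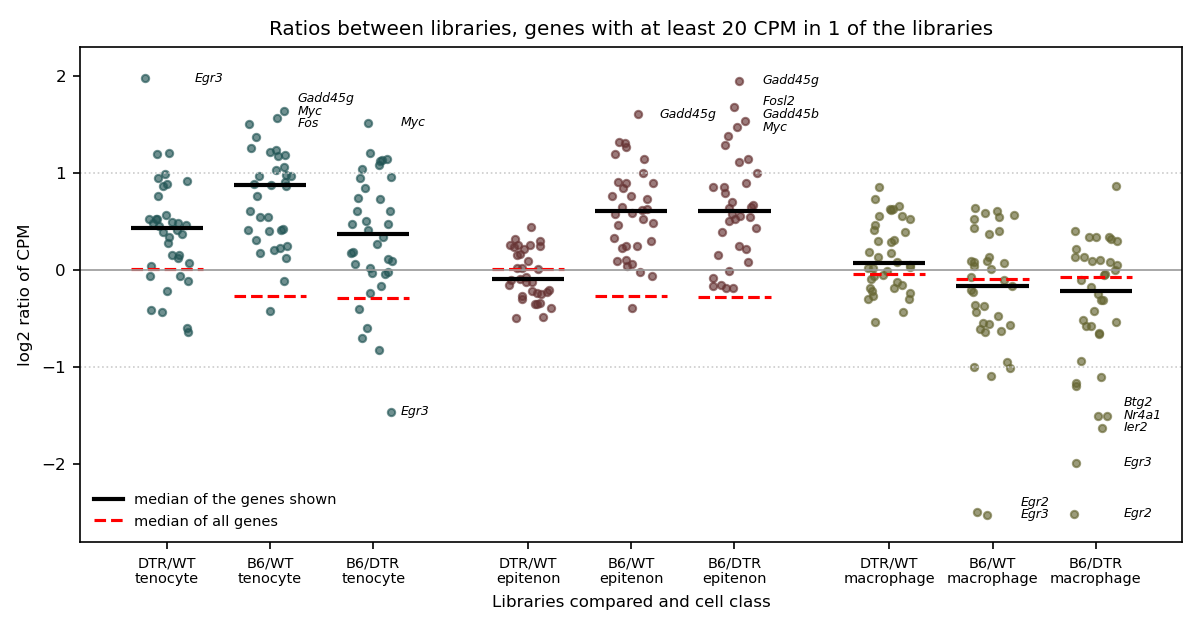
Log2 ratio of CPM for each of the immediate early genes with at least 20 CPM in either library, for 3 pairs of libraries in 3 cell classes, with their median (black bar) and that of all genes (red dashed bar). The members lie above all genes in B6 tenocytes and epitenon cells, while macrophages of B6 have a downward tail led by Egr2 and Egr3.

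Epitenon cells, the sheath cells around the tendon, barely separated DTR from WT. Of 34 members at 20 CPM or more, 15 were higher in DTR, beside 51.5% of all genes. The median log2 ratio was -0.10, beside 0.008 for all genes. No member passed 2-fold in either direction, beside 0.261% of all genes higher and 0.990% lower. The widest were Fosl2 at 110 CPM in WT and 78.0 in DTR, Nr4a3 at 109 and 78.0, and Dusp1 at 278 and 380. Between 0.712-fold and 1.36-fold, these were small next to the tenocyte values. Fosl1, Ier5, Gadd45g, Maff and Btg2 were lower too, at 0.765-fold to 0.812-fold, and Klf2 and Egr1 were higher at 1.25-fold and 1.23-fold. Egr2, Dusp2, Dusp5 and Dusp6 lay under 20 CPM in all 3 libraries.

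B6 epitenon cells lay above both other libraries. Against WT, 31 of 34 members were higher, beside 20.8% of all genes. The members' median log2 ratio was 0.61, and 0.87 above that of all genes. Fosl2, Junb, Egr1, Zfp36, Myc, Gadd45b and Gadd45g, 7 in number, were at least 2-fold higher, beside 1.71% of all genes, and none was lower by that much, beside 1.26%. Against DTR, 28 of 34 were higher, beside 24.6% of all genes, with the same member median of 0.61. At least 2-fold higher were 8, Fosl2, Junb, Nr4a3, Zfp36, Myc, Mafk, Gadd45b and Gadd45g, beside 3.31% of all genes, and none was lower by that much, beside 1.74%. With TMM factors 14 members were at least 2-fold higher than in WT and 14 than in DTR. All genes past 2-fold then split into 201 higher and 36 lower instead of 98 and 72 against WT, and into 307 and 44 instead of 190 and 100 against DTR.

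Single genes showed the size of it. Junb in epitenon cells was at 1071 CPM (1056 to 1086) in WT, 964 (950 to 979) in DTR and 2364.5 (2349 to 2380) in B6. Zfp36 was at 527, 504 and 1314 CPM, and Gadd45g at 115, 90.5 and 350, the widest ratio at 3.04-fold over WT and 3.87-fold over DTR. In each of these WT and DTR lay near each other and B6 apart. Fos was at 1557, 1858 and 2640 CPM, Fosl2 at 110, 78.0 and 251, and Egr1 at 863, 1060 and 1728. Myc was at 198, 172 and 478 CPM, Gadd45b at 173, 148 and 429, and Mafk at 54.7, 46.2 and 102. Nr4a3 was at 109, 78.0 and 168 CPM, Ier5 at 601, 472 and 943, and Zfp36l1 at 876, 729 and 1354, with DTR lowest in all 3. Klf2 was at 360, 450 and 672 CPM and Sik1 at 62.9, 67.2 and 117, with WT lowest. Klf4, the most abundant member in epitenon cells, was at 2672, 3197 and 3174 CPM, so B6 and DTR lay together there.

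Macrophages of B6 had no such upward lean. Of 37 members, 16 were higher than in WT, beside 39.1% of all genes. Of 38, 14 were higher than in DTR, beside 42.3% of all genes. There 4 members were at least 2-fold lower than in WT, beside 2.85% of all genes, and 8 were at least 2-fold lower than in DTR, beside 2.18%. None was at least 2-fold higher in either, beside 2.60% and 3.34% of all genes. The median over the members stayed near that of all genes, at -0.17 against -0.09 for B6 against WT (37 members) and -0.21 against -0.07 for B6 against DTR (38 members). Among macrophages with at most 5% mitochondrial counts the latter was -0.37 against -0.07, with 10 members at least 2-fold lower than in DTR (113 of all 5501 genes) and 6 lower than in WT (127 of 5532). With TMM factors 3 members were at least 2-fold lower than in WT, beside 143 of all 5547 genes, and 8 than in DTR, beside 112 of 5509.

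Egr2 (ENSMUSG00000037868) and Egr3 (ENSMUSG00000033730), transcription factors that macrophages induce on activation, were furthest down. Egr2 stood at 199 CPM (190 to 208) in WT, 202 (195 to 209) in DTR and 35.4 (31.1 to 40.0) in B6, a B6 to WT ratio of 0.178 (0.155 to 0.203). Egr3 stood at 222 CPM (212 to 231), 153 (147 to 159) and 38.6 (34.2 to 43.4), a ratio of 0.174 (0.153 to 0.197). They ranked 5523 and 5525 of 5547 genes, so few genes were further down in B6 macrophages. An Egr2 UMI was found in 23.5% of thinned macrophages of WT, 24.0% of DTR and 4.69% of B6 (2.998% to 6.96%), with median depths of 16558, 13253 and 13829 UMIs. In thinned T cells, the class lowest in Egr2, it was found in 0.840%, 0.330% and 0 of 63 cells, and the exact interval of the last reaches 5.69%. With 63 cells that interval is wide, and it includes the B6 macrophage share. The intervals of WT and DTR T cells reached 4.59% and 1.83%. In B6 the levels were 35.4 CPM in macrophages and 1.48 in T cells.

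Several other members were lower in B6 macrophages and higher in DTR than in WT. Nr4a1 stood at 250 CPM in WT, 333 in DTR and 117 in B6. Ier2 was at 240, 371 and 120, Btg2 at 332, 488 and 172, and Dusp1 at 716, 1034 and 461. Fos in macrophages was at 952 CPM (932 to 972), 1402 (1383 to 1421) and 651 (632 to 670), and Egr1 at 705, 875 and 456. In each of these DTR was highest and B6 lowest. Nr4a2 had the same order at 95.6, 148 and 64.6 CPM, and Dusp2 was highest in WT at 56.7, 42.1 and 28.2. Furthest up in B6 macrophages against WT were Mafk at 102, 87.7 and 160 CPM and Jun at 396, 606 and 605, at 1.56-fold and 1.53-fold.

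DTR against WT gave no member past 2-fold in macrophages, beside 0.657% of all genes higher and 1.17% lower, with a median log2 ratio of 0.07 over 38 members. Sik1 at 13.9 and 25.1 CPM was the widest, at 1.80-fold (1.47 to 2.22), on 129 and 386 UMIs, and it reached 20 CPM only in DTR. Klf2 at 307 and 509, Btg1 at 675 and 1068, Ier2, Nr4a2, Jun, Fos, Btg2 and Dusp1 followed, at up to 1.66-fold. Egr3 was lower at 0.690-fold.

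The smaller classes rested on fewer cells. Endothelial cells of B6 had 33 of 38 members higher than WT, with a median log2 ratio of 0.31, beside 30.8% of all genes higher and a median of -0.22. In mural cells 29 of 38 were higher with 0.285, beside 32.8% and -0.24 for all genes, and in Schwann cells 29 of 38 with 0.48, beside 32.1% and -0.28. Fewer members were higher in DTR than in WT in these classes. They numbered 11 of 37 in endothelial cells (median -0.18), 8 of 37 in mural cells (-0.19) and 13 of 37 in Schwann cells (-0.11). All genes there had medians of -0.07, 0.01 and -0.06, with 41.7%, 50.9% and 44.2% higher. In T cells DTR was above WT in 31 of 34 members (median 0.66), and B6 was below DTR in all but 3 of 33 (median -0.74). All genes had medians of 0.03 and -0.24 in those T cell comparisons. Of all genes, 53.5% were higher in DTR than WT T cells and 29.2% higher in B6 than DTR T cells. B6 against WT had 13 of 32 T cell members higher (median -0.08), beside 30.9% and -0.215 for all genes. Junb, with Btg1 and Zfp36l2 among the 3 leading members of T cells, stood there at 936, 1733 and 1129 CPM. Satellite cells, with 41, 55 and 68 cells, had medians of 0.35 for DTR and 0.83 for B6 against WT, beside -0.08 and -0.37 for all genes, and with 28 of 36 members higher in B6 beside 26.3% of all genes.

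Within a library, some members varied together from cell to cell. Correlations were taken over 20 members that passed a fixed minimum level in tenocytes of all 3 libraries, on log-scaled levels per cell. In tenocytes the median of 190 pairs was 0.19 in WT, 0.17 in DTR and 0.25 in B6. Single pairs ran from -0.19 to 0.61 in WT, from -0.18 to 0.60 in DTR and from -0.15 to 0.67 in B6. No correlations among other genes are set beside them here. The cells of a library share depth and free RNA, so these values are descriptions. Fos went most closely with Zfp36 (r = 0.58, 0.51 and 0.67) and also with Jun (0.53, 0.48 and 0.58) and Egr1 (0.52, 0.44 and 0.62). Its correlation with Btg1 was -0.09, -0.02 and 0.17, and with Klf6 -0.04, 0.10 and 0.06. The summed share had r = -0.22, -0.19 and -0.03 with log depth and 0.17, 0.05 and 0.06 with mitochondrial percent.

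Other lists of stimulus-related genes were read in the same cells. The lists were chosen, like the members, with results of these data known. Heat shock genes, chaperones induced by unfolded protein, had the largest median of the 3 lists in B6 tenocytes. In B6 tenocytes all 14 were higher than in WT, 8 of them at least 2-fold, with a median log2 ratio of 1.13. Of all genes there, 24.2% were higher and 3.57% at least 2-fold higher, with a median of -0.27. Hspa1a, an inducible Hsp70 gene, was at 67.6 CPM in WT, 79.7 in DTR and 1005 in B6, and its near-identical neighbour Hspa1b, with which reads may be shared, at 60.1, 66.6 and 890. Hsph1, Dnajb1, Dnaja1, Hspa8, Hsp90aa1 and Bag3 were the others, and Hspa8 was the most abundant of the list in B6 at 1895 CPM. DTR tenocytes had none of the 14 at least 2-fold from WT, beside 2.06% of all genes higher and 1.55% lower, with a median of -0.17. Macrophages of B6 also had 13 of 13 heat shock genes higher than WT (median 0.69), 4 of them at least 2-fold, beside 39.1% and 2.60% of all genes and a median of -0.09, while their Egr2 and Egr3 were low. Heat shock genes and mitochondrial UMIs were thus both higher in B6 beside its tenocyte and epitenon member levels, and their part in those levels was not tested.

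Of 34 other stimulus-induced genes in B6 tenocytes, 27 were higher than in WT (median 0.595) and 10 at least 2-fold, beside 24.2% and 3.57% of all genes. Cebpd, an inflammatory C/EBP factor and the most abundant of the list there, was at 1437.5 CPM in WT, 1071 in DTR and 2988.5 in B6, Il6 at 116, 75.3 and 388, and Socs3, which restrains cytokine receptors, at 293, 497 and 810. Ccn1, Bhlhe40, Irf1, Arid5a, Rgs2, Nfil3 and Ier5l made up the rest. DTR tenocytes had 5 of 33 at least 2-fold higher than WT, Ccn1, Ccn2 and Thbs1, known YAP targets, and Id1 and Id3, known BMP targets, and 2 lower, Tiparp and Lif, beside 2.06% of all genes higher and 1.55% lower. Upstream signalling genes, the MAP kinases and the factors SRF, ELK and CREB, had 17 at 20 CPM or more in B6 against WT tenocytes, with a median of -0.26, next to -0.27 for all genes, and Mef2a alone was at least 2-fold lower, beside 2.10% of all genes. In B6 macrophages Cxcl1, Cxcl2, Ccl2, Nfkbiz and Ccn2 were at least 2-fold lower than in WT, with Cxcl2, the most abundant, at 31396 CPM in WT, 30933 in DTR and 12415 in B6, and Il6 was the 1 gene of the list at least 2-fold higher. Of all genes in that comparison, 2.85% were at least 2-fold lower and 2.60% higher.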

How the data were processed

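Each library was 1 10x Genomics 3′ library of pooled FDL tendons. The authors deposited UMI counts per gene and barcode before the study's cell filter, as whole numbers that were not normalized. The file headers name Cell Ranger 6.0.1 and the submitters' processing notes 2.1.1, and for the build and annotation used in counting the sources used here gave no name. The members and lists were chosen with earlier results of these data known. The study's stated filter was applied, 1000 to 5000 genes per barcode and no more than 10% of mitochondrial counts. It left 8357 of 15536, 6554 of 16099 and 4798 of 12273 barcodes (WT, DTR, B6), and the study states 2 more for WT and the same for the others. Total UMI counts were 148149903, 123918145 and 92707026.

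A cell was gated to a class when at least 50% of that class's markers were detected with a margin of 10% over the next class, a rule set after the marker distributions were seen and without the members. Scrublet called 1, 6 and 1 cells, too few to have worked, so its calls were used only in an alternative setting. Counts were summed per class and library to CPM and compared among genes with at least 20 CPM in either library, and 2-fold was the limit of size. Shares of positive cells used cells thinned to 2000 UMIs, leaving out 9, 5 and 1 shallower cells. Named were all 38 members, with intervals for the most abundant of each family in tenocytes, then the 10 with the largest ratios per comparison, and in other lists the most abundant gene and those past 2-fold. Clusters were made with scanpy 1.11.5 without the members. Promoters were the 250 bases before RefSeq start sites. Alternatives were other mitochondrial limits, clusters as classes, other minimum levels, 1.5-fold, TMM factors (edgeR 4.0.16), CPM without mitochondrial and ribosomal genes, doublet removal and a gate margin of 20%. The code was tested on simulated data, with Python 3.11.15, numpy 2.4.6, scipy 1.17.1, pandas 2.3.3, matplotlib 3.10.9 and R 4.3.3.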

Additional observations from a re-analysis of the deposited data

Results flagged for a closer look

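Some members differed in opposite directions between cell classes in the same pair of libraries, by at least 1.5-fold each way. These differences between classes were not tested, since each group had 1 library. The share of all genes that did the same is not set beside them here. For B6 against WT, the log2 ratio of Egr1 was 0.97 in tenocytes, 1.00 in epitenon cells and -0.63 in macrophages. That of Egr2 was 1.19 in tenocytes and -2.49 in macrophages. That of Nr4a1 was 1.06 in tenocytes, 0.74 in epitenon cells and -1.09 in macrophages, and that of Dusp1 was 0.84 in epitenon cells and -0.63 in macrophages. For B6 against DTR, the log2 ratio of Fos was 0.61 in tenocytes and -1.11 in macrophages. That of Egr1 was 0.71 in epitenon cells and -0.94 in macrophages, and that of Nr4a1 was 0.86 and -1.51.

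The barcodes that the filter removed, which enter no comparison, also held the 38 genes. They made up 1.30% of the removed barcodes' UMIs in WT, 1.18% in DTR and 1.73% in B6, against 1.56%, 1.90% and 2.61% in kept cells. Removed barcodes under 1000 genes had 0.756%, 0.496% and 0.596%, and those over 5000 genes 1.42%, 1.51% and 2.21%. Barcodes with 1000 genes or more and over 10% mitochondrial counts had 1.87%, 1.72% and 2.13%, and they numbered 152, 240 and 811.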

How the results depend on the processing

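No paired analysis was possible because each group has 1 library, and for the same reason no library could be left out. The median log2 ratio of the members kept its sign in all 9 comparisons over 12 settings, from 0.33 to 0.45 for DTR against WT and from 0.80 to 1.10 for B6 against WT in tenocytes. The 1.5-fold setting could not change this median, since the limit of size does not enter it. Removing the 1, 6 and 1 cells that Scrublet called hardly could. The 10 members with the largest ratios in each of these comparisons were picked from the same libraries that the alternatives reused. They kept their direction under the alternatives run for them, which is therefore no separate check. Members near a ratio of 1 did not all do so, since 33 and not 32 of 34 were higher in B6 than WT tenocytes with TMM factors, and the split of all genes past 2-fold turned with TMM factors in tenocytes for DTR against WT and B6 against DTR, and in macrophages for B6 against WT. The alternatives were not run for the 5 smaller classes. At 1.5-fold, members higher and lower in tenocytes numbered 9 and 2 for DTR against WT (325 and 329 of all 5490 genes), 20 and 0 for B6 against WT (351 and 682 of 5298) and 14 and 4 for B6 against DTR (520 and 1296 of 5457). In epitenon cells they numbered 18 and 0 for B6 against WT (250 and 503 of 5732) and 17 and 0 against DTR (388 and 763 of 5738). In macrophages they numbered 6 and 0 for DTR against WT (101 and 170 of 5480), 3 and 9 for B6 against WT (392 and 485 of 5547) and 1 and 11 for B6 against DTR (471 and 401 of 5509). Other stimulus-induced genes higher in tenocytes then numbered 12 of 33, 17 of 34 and 13 of 34 in the 3 comparisons. Of all genes, 325 of 5490, 351 of 5298 and 520 of 5457 were. Those of the list lower at 1.5-fold are not given here, and 2, 0 and 3 of them were at least 2-fold lower. With TMM factors, 18 members were at least 2-fold higher in B6 than WT tenocytes (256 of all 5298 genes). In epitenon cells 14 were (201 of 5732). Against DTR these numbers were 12 (430 of 5457) and 14 (307 of 5738). At a minimum of 100 CPM, 0 of 28 members were at least 2-fold higher in DTR than WT tenocytes (32 of all 1438 genes). In B6 against DTR tenocytes 0 of 28 were at least 2-fold lower (70 of 1454). With clusters as classes, the median share of DTR epitenon cells was 1.72%. In these classes 5 members were at least 2-fold higher in DTR than WT tenocytes (127 of all 5517 genes). In B6 against WT tenocytes 9 were (175 of 5306), and 6 were at least 2-fold lower in B6 than WT macrophages (173 of 5579). With at most 5% mitochondrial counts, the median for B6 against DTR macrophages was -0.37 instead of -0.21. At least 2-fold lower were 10 members (113 of all 5501 genes) instead of 8 (120 of 5509). The cause of these changes was not tested. Without the most abundant member, median shares in WT, DTR and B6 were 1.10%, 1.47% and 1.85% in tenocytes, 1.47%, 1.503% and 2.34% in epitenon cells, and 1.56%, 1.69% and 1.38% in macrophages. When a positive cell needed 2 UMIs, members found in 10% of cells numbered 19 in WT tenocytes, 20 in WT epitenon cells and 19 in B6 macrophages. The gate margin of 20% and the removal of the 5% of cells with the highest Scrublet score were chosen after seeing the data. Depth limits Dusp2, Dusp5, Dusp6, Egr2 and Egr3 most, and the small classes.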
